A study of Mus musculus with 9 samples.

Results

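The 5 genes described here, Wfs1, Fibcd1, Pou3f1, Mpped1 and Spink8, are markers of the pyramidal neurons of hippocampal field CA1. They were chosen by name as known CA1 genes, with their differences between the groups of these same libraries already known, and they are 5 of the 47643 genes in the count matrix. All 5 passed the filter on low counts in every comparison. Because the levels that chose them are the levels compared below, the differences of these 5 genes are given as a description with no test.

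CA1 pyramidal neurons are glutamatergic cells that receive the Schaffer collaterals of CA3 and send the main output of the hippocampus to the subiculum and the cortex. The field is known for its part in spatial and contextual memory. In the mouse brain it is marked by a set of genes that neighbouring CA2, CA3 and the dentate gyrus express little or not at all. Wfs1 encodes wolframin, a membrane protein of the endoplasmic reticulum whose loss causes Wolfram syndrome. Fibcd1 encodes a membrane receptor of the fibrinogen domain family that binds acetylated sugars. Pou3f1 encodes a POU-domain transcription factor, Mpped1 a protein with a metallophosphoesterase domain, and Spink8 a secreted Kazal-type inhibitor of serine peptidases.

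Poly-A RNA of the hippocampus was sequenced in 9 libraries, with 3 libraries in each of 3 groups. The MRL/mpj group was labelled wild type and untreated. The MRL/lpr group was labelled MRL-lpr and untreated, although the title of the series speaks of PBS for these mice, and the MRL/lpr+MSC group was labelled MRL-lpr and treated with mesenchymal stem cells. All 9 labels gave an age of 6 postnatal weeks and the strain C57BL/6, whereas the study's methods name MRL/MpJ and MRL/MpJ-Faslpr mice. The lpr allele is a retrotransposon insertion in an intron of Fas, a death receptor of lymphocytes, and MRL mice that carry it develop a lupus-like disease. It is a germline allele, so that no cell type of the brain is singled out by the model. The source, dose and time of the stem cells were not given in the sources used here.

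The label of the treated group has a limit that touches every result below. In the study's supplementary expression table, the values headed MRL/lpr are constant multiples of the libraries labelled MRL/lpr+MSC and of no other library, while the values headed MRL/mpj match the libraries labelled MRL/mpj. Which of the headings is right could not be settled from the data used here. The groups are therefore called by their deposited labels, both are set against MRL/mpj side by side, and a comparison of all 6 MRL/lpr libraries with MRL/mpj, which an exchange of the labels would not alter, was added after the data had been seen. Fas itself did not separate the groups at the level of the whole gene. Its level was 2.0, 1.85 and 1.63 CPM (counts scaled to the size of the library) in MRL/mpj, 2.27, 1.33 and 1.77 CPM in MRL/lpr and 0.985, 1.11 and 1.81 CPM in MRL/lpr+MSC mice, and a count over the whole gene need not show an insertion in an intron.

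Total counts ranged from 19475804 to 26912031 per library, and 3 counts corresponded to between 0.105 and 0.163 CPM. Each of the 5 genes had between 246 and 6926 counts in every library, the lowest being those of Spink8. No pair of libraries of one group agreed within counting noise, the smallest chi-square per gene being 10.659. Several libraries stood apart in markers of other cells. Choroid plexus genes summed to 9761 CPM in MRL/lpr replicate 2 and 4902 CPM in MRL/lpr+MSC replicate 2, against 107.3 to 1098 CPM in the other libraries. Inhibitory neuron genes were highest in MRL/lpr replicate 3 at 2043 CPM and MRL/lpr+MSC replicate 3 at 1731 CPM, against 663.8 to 1070 CPM elsewhere. The thalamic list of MRL/lpr+MSC replicate 1 stood at 72.3 CPM, below the 131.7 to 615.9 CPM of all other libraries.

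The members lie on 5 chromosomes. In GRCm38, Wfs1 (ENSMUSG00000039474) spans chr5:36966104-36989205 on the minus strand and Fibcd1 (ENSMUSG00000026841) spans chr2:31813290-31846005 on the minus strand. Pou3f1 (ENSMUSG00000090125) lies at chr4:124656807-124660655, Mpped1 (ENSMUSG00000041708) at chr15:83779467-83858494 and Spink8 (ENSMUSG00000050074) at chr9:109812280-109826633, all 3 on the plus strand. Of these genes, Wfs1, Fibcd1 and Mpped1 had windows of 300 bases around an annotated start, 250 before it and 50 after it, in the RefSeq sequences of GRCm38.p6, and Mpped1 had a pair of them. For Pou3f1 and Spink8 no sequence is shown. These are sequences of the C57BL/6J reference and not of MRL mice.

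The sequences before the starts of Fibcd1 and Mpped1 are shown because Fibcd1 was the member whose groups were most clearly apart, whereas Mpped1, the member that differed most between both MRL/lpr groups, has a pair of annotated starts of very unlike composition. They are written 5′ to 3′ on the strand of the gene and stop at the base before the exon that follows. In GENCODE the Fibcd1 stretch lies outside the gene, and both Mpped1 stretches lie in an intron of a longer Mpped1 transcript that starts further upstream. Capitals mark the GC box, GGGCGG on either strand, a recognition sequence of Sp-family factors. The Fibcd1 stretch is chr2:31846006-31846255 on the minus strand, and those of Mpped1 are chr15:83779773-83779981 and chr15:83784579-83784828 on the plus strand.
Fibcd1: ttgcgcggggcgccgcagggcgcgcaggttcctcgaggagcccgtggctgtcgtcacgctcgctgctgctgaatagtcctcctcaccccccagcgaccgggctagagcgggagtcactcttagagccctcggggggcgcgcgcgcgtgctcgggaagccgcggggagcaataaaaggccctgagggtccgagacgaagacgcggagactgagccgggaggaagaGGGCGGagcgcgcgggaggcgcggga
Mpped1 upstream start: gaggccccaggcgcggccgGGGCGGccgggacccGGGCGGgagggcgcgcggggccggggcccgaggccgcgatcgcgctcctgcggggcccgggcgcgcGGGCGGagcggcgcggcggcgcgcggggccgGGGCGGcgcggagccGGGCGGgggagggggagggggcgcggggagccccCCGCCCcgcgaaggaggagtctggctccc
Mpped1 downstream start: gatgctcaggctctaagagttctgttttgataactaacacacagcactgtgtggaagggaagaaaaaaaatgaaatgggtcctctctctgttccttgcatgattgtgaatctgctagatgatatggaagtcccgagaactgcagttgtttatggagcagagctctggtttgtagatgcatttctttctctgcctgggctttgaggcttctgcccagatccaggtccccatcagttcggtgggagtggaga

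The windows of 300 bases were 74.3% G and C in Fibcd1, 70.0% in Wfs1 and 89.3% at the upstream start of Mpped1, but 47.3% at its downstream start, beside a median of 52.7% over 32851 promoter windows. GC boxes were found 2 times in the Fibcd1 window, 4 times in that of Wfs1, 9 times at the upstream start of Mpped1 and 0 times at the downstream start, and 35.7% of all windows held at least 1. The octamer ATGCAAAT, which POU-domain factors bind, was in none of the 4 windows and in 1.74% of all windows. The E-box CANNTG, the recognition sequence of basic helix-loop-helix factors, occurred 1 time in the Wfs1 window and 1 time at the downstream start of Mpped1, and 72.3% of all windows held it. The half-site TGACG of the cyclic AMP response element was found 1 time, in the Fibcd1 window, and in 20.8% of all windows. All motifs were searched on both strands. The Wfs1 stretch is not printed because all but 27 of its bases before the start lie in an annotated exon.

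Levels of different genes were compared per length, as FPKM. In MRL/mpj mice Wfs1 was the highest of the 5 at 64.4 ± 13.6 FPKM (SD, n = 3), followed by Mpped1 at 42.9 ± 2.42 FPKM. Pou3f1 at 32.6 ± 3.16 FPKM and Fibcd1 at 30.25 ± 2.70 FPKM came next, and their ranges overlapped. Spink8 was the lowest at 23.6 ± 2.5 FPKM, so only Pou3f1 and Fibcd1 were neighbours in this order that did not differ beyond their spread. In MRL/lpr mice the order was less distinct. Wfs1 stood at 44.1 ± 20.3 FPKM, Mpped1 at 18.0 ± 4.77 FPKM, and Pou3f1, Spink8 and Fibcd1 at 14.05 ± 3.36, 13.9 ± 1.07 and 13.85 ± 1.64 FPKM. The range of each gene in that order overlapped that of the next. In MRL/lpr+MSC mice Wfs1 was at 54.5 ± 13.65 FPKM and Mpped1 at 32.7 ± 9.86 FPKM, while Fibcd1 (17.4 ± 1.77 FPKM), Spink8 (16.9 ± 3.04 FPKM) and Pou3f1 (16.7 ± 5.72 FPKM) came lower. The ranges of these 3 overlapped, as did those of Wfs1 and Mpped1, while Mpped1 lay above Fibcd1 in all libraries of the group.

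Within each gene, levels were compared between groups as CPM after TMM scaling, with the log2 fold change and standard error (SE) of limma voom. Fibcd1, the sugar-binding receptor, was at 130, 147 and 153 CPM in the MRL/mpj libraries, at 68.2, 57.8 and 72.5 CPM in MRL/lpr and at 80.9, 92.7 and 75.0 CPM in MRL/lpr+MSC. All 6 MRL/lpr and MRL/lpr+MSC values lay below the lowest MRL/mpj value, and all MRL/lpr+MSC values lay above all MRL/lpr values. The log2 fold change against MRL/mpj was -1.11 (SE 0.11) in MRL/lpr and -0.79 (SE 0.10) in MRL/lpr+MSC mice. Its coefficient of variation within groups ran from 8.46% to 11.4%.

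Pou3f1, the transcription factor, was at 112, 134 and 130 CPM in MRL/mpj, at 65.2, 40.1 and 57.9 CPM in MRL/lpr and at 42.7, 87.9 and 62.6 CPM in MRL/lpr+MSC libraries. It too was lower in every library of both MRL/lpr groups than in any MRL/mpj library, while these groups overlapped each other. The log2 fold change was -1.22 (SE 0.18) in MRL/lpr and -1.01 (SE 0.24) in MRL/lpr+MSC mice. The wide spread of the latter group, 64.4 ± 22.6 CPM, came from replicate 1 being low and replicate 2 high.

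Mpped1, the metallophosphoesterase-domain gene, was at 180, 178 and 194 CPM in MRL/mpj and at 93.7, 54.7 and 85.1 CPM in MRL/lpr libraries, a log2 fold change of -1.27 (SE 0.20). Its values in MRL/lpr+MSC libraries were 180, 145 and 96.6 CPM, and the log2 fold change was -0.43 (SE 0.21). Replicate 1 of that group lay within the MRL/mpj range, and replicate 3 lay just above the highest MRL/lpr library. Mpped1 was thus the member that differed most between the groups labelled MRL/lpr and MRL/lpr+MSC.

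Spink8, the peptidase inhibitor and the least abundant member, was at 21.7, 18.9 and 17.5 CPM in MRL/mpj, at 12.3, 10.6 and 11.5 CPM in MRL/lpr and at 16.4, 13.5 and 11.7 CPM in MRL/lpr+MSC libraries. Neither MRL/lpr group overlapped MRL/mpj, although MRL/lpr+MSC replicate 1 came close to the lowest MRL/mpj library. The log2 fold changes were -0.74 (SE 0.12) and -0.49 (SE 0.15).

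Wfs1 did not follow the other 4. It was at 194, 298 and 238 CPM in MRL/mpj, at 213, 78.9 and 211 CPM in MRL/lpr and at 151, 257 and 213 CPM in MRL/lpr+MSC libraries. The groups overlapped, and the low mean of the MRL/lpr group rested on replicate 2. The log2 fold change was -0.65 (SE 0.40) in MRL/lpr and -0.24 (SE 0.23) in MRL/lpr+MSC mice, and without MRL/lpr replicate 2 the former was -0.18.

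**Figure D1:**
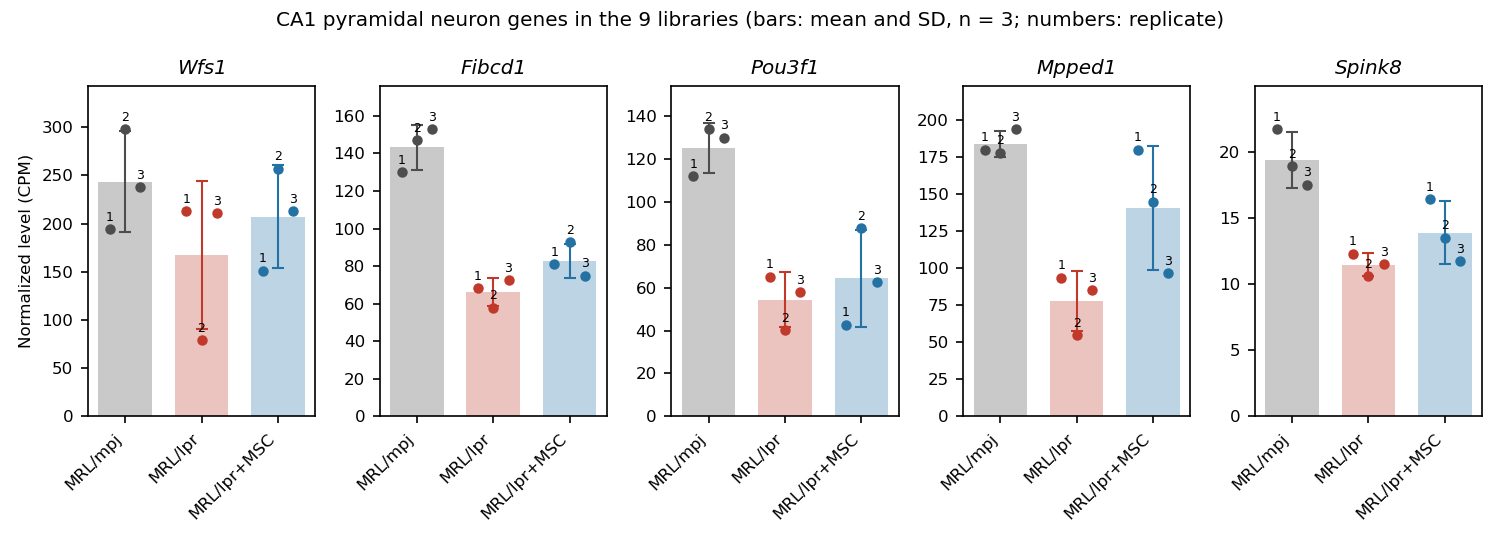
Level in CPM after TMM scaling (vertical axes, linear from 0) of each of the 5 CA1 genes in the libraries of the 3 groups; points are libraries numbered by replicate, bars are means and error bars SD (n = 3). For Fibcd1, Pou3f1 and Spink8 every MRL/lpr and MRL/lpr+MSC point lies below every MRL/mpj point, for Mpped1 this holds in MRL/lpr only, and for Wfs1 the groups overlap.

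In MRL/lpr mice 4 of the 5 members, all but Wfs1, lay below MRL/mpj with no overlap between the groups, as did 18.6% of the 16697 genes tested. In MRL/lpr+MSC mice Fibcd1, Pou3f1 and Spink8 had no overlap with MRL/mpj, as did 14.4% of 16196 genes in the lower direction. Since these levels chose the members, nothing is read from the counts. The median log2 fold change of the 5 was -1.11 in MRL/lpr and -0.49 in MRL/lpr+MSC mice, beside 0.02 and 0.01 over all genes tested. Both comparisons share the 3 MRL/mpj libraries. In this bulk tissue, fewer CA1 neurons, a smaller share of CA1 in the dissected piece and less RNA of these genes per neuron cannot be told apart. In somewhat older MRL/lpr mice, the study reported no loss of Nissl-stained neurons in the hippocampus.

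With all 6 MRL/lpr and MRL/lpr+MSC libraries set against MRL/mpj, the log2 fold changes were -0.96 (SE 0.13) for Fibcd1, -1.12 (SE 0.22) for Pou3f1, -0.85 (SE 0.32) for Mpped1, -0.63 (SE 0.13) for Spink8 and -0.45 (SE 0.34) for Wfs1. Fibcd1, Pou3f1 and Spink8 had no overlap, as did 8.95% of 17113 genes in the lower direction. The median of the 5 was -0.85 and that of all genes 0.02. This comparison does not depend on which MRL/lpr group was treated.

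Between MRL/lpr+MSC and MRL/lpr mice the members were nominally higher in the former, with log2 fold changes of 0.41 (SE 0.43) for Wfs1, 0.33 (SE 0.12) for Fibcd1, 0.22 (SE 0.30) for Pou3f1, 0.85 (SE 0.29) for Mpped1 and 0.25 (SE 0.15) for Spink8. Of the 16758 genes tested by limma voom, 0% were called lower and 0% higher (called meaning an adjusted p under 0.05 and a change of at least 1.5-fold), with a smallest adjusted p of 0.921 and 648 genes at an unadjusted p under 0.05. Calls were also 0 with limma-trend and with library quality weights. Fibcd1 and Mpped1 had no overlap between these groups, as did 4.27% of all genes in the higher direction. When scaled by pan-neuronal genes, the median of the 5 was 0.09 beside -0.24 over all genes, against 0.33 and 0.00 under TMM.

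The fold changes were also fitted without single libraries. The log2 fold change in MRL/lpr then stayed between -1.19 and -1.02 for Fibcd1, -1.37 and -1.02 for Pou3f1, -1.43 and -1.04 for Mpped1 and -0.80 and -0.66 for Spink8. In MRL/lpr+MSC mice Pou3f1 ranged from -1.28 to -0.75 and Mpped1 from -0.63 to -0.20.

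**Figure D2:**
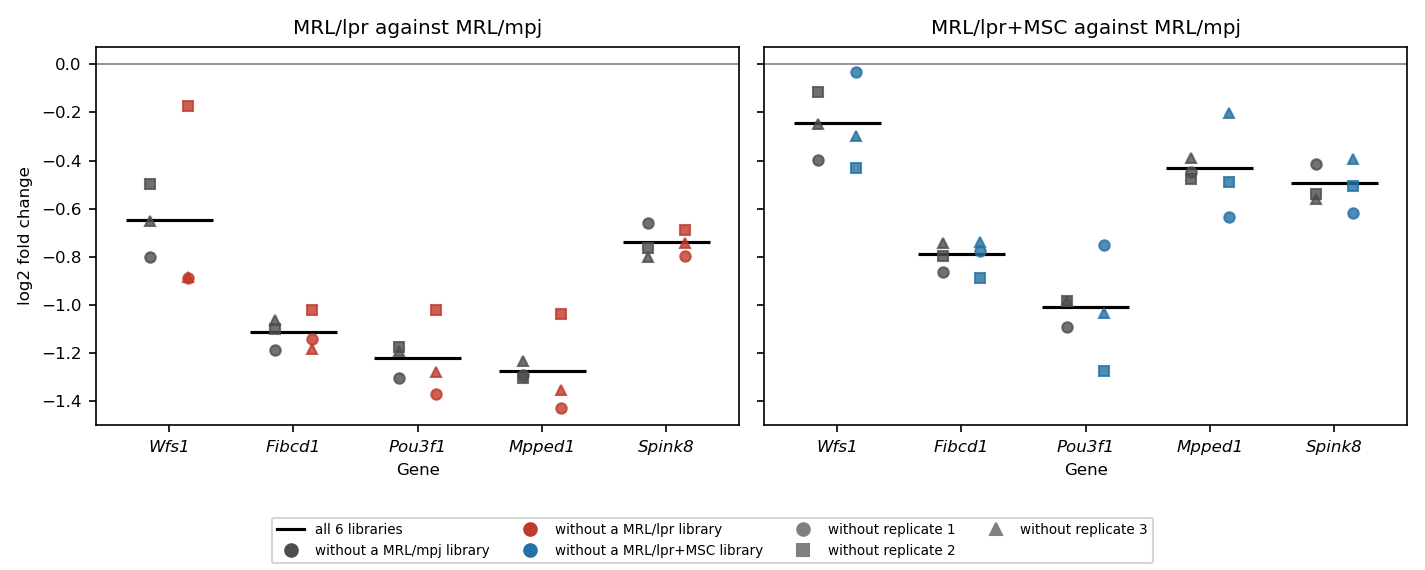
Log2 fold change against MRL/mpj (vertical axes) of each of the 5 CA1 genes in MRL/lpr (left) and MRL/lpr+MSC (right) mice; black lines are the estimates from all 6 libraries, and symbols are estimates with 1 library left out, coloured by its group and shaped by its replicate number. All estimates are below 0, and the largest shift is that of Wfs1 in MRL/lpr mice, from -0.65 to -0.18 without replicate 2.

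Per library, the mean log2 level of the 5 genes relative to the MRL/mpj mean was -0.76, -1.43 and -0.82 in the MRL/lpr and -0.66, -0.38 and -0.75 in the MRL/lpr+MSC libraries. The MRL/mpj libraries lay between -0.09 and 0.08. MRL/lpr replicate 2, the lowest of all, was the library with the most choroid plexus RNA. Its mean log2 levels of the dentate gyrus and CA3 lists, at 0.33 and 0.19, were the highest of all libraries. Whether the shares of hippocampal fields differed between the dissected pieces was not tested. MRL/lpr+MSC replicate 2, the library next in choroid plexus RNA, had the highest CA1 level of its group, at -0.38. MRL/lpr replicate 3 and MRL/lpr+MSC replicate 1, in which the choroid plexus list summed to 135.7 and 107.3 CPM, less than in any MRL/mpj library, had CA1 levels of -0.82 and -0.66. All 8 choroid plexus genes were detected in every library, and Ttr, the transthyretin gene that defines this epithelium, ranged from 50.9 to 8870 CPM.

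The summed thalamic list was higher in all 3 MRL/lpr libraries (201.7 to 615.9 CPM) than in MRL/mpj (131.7 to 173.8 CPM), and it ranged from 72.3 to 535.4 CPM in MRL/lpr+MSC libraries. The gene lists are read against the share of all genes called, which was 2.4% lower and 3.41% higher in MRL/lpr and 1.5% lower and 1.91% higher in MRL/lpr+MSC against MRL/mpj. Of the 10 thalamic genes 9 were tested and 0 were called in either comparison with MRL/mpj by limma voom, but 4 were called higher in MRL/lpr mice under pan-neuronal scaling. Zic1, a transcription factor of the thalamus and septum, reached 349 CPM in MRL/lpr replicate 3 beside 14.9 to 30.6 CPM in MRL/mpj libraries. It averaged 205.6 CPM in MRL/lpr and 22.3 CPM in MRL/mpj mice, so this 1 gene made much of the higher thalamic sum. Of the 9 tested thalamic genes, 7 were positive and 2 negative in MRL/lpr mice. The striatal list summed to 473.5 to 539.7 CPM in MRL/lpr and 414.5 to 435.2 CPM in MRL/mpj libraries, without overlap, and to 432.8 to 608.6 CPM in MRL/lpr+MSC libraries, which overlapped MRL/mpj. Of its 12 genes, 1 was called, Rgs9 in MRL/lpr mice (log2 fold change 0.96, adjusted p = 0.031, limma voom). The part of striatal, thalamic or choroid plexus RNA in the CA1 differences was not tested. Of the inhibitory list, Pvalb (-0.98, adjusted p = 0.00341) and Vip (-1.19, adjusted p = 0.00622), markers of interneuron classes, were called lower in MRL/lpr mice. The list as a whole was split there, with 3 of its 7 genes negative, 4 positive and a median log2 fold change of 0.01. The endothelial tight-junction gene Cldn5 was called higher in MRL/lpr (0.73, adjusted p = 0.0083) and MRL/lpr+MSC mice (0.87, adjusted p = 0.012). In the choroid plexus, astrocyte, oligodendrocyte, microglia and neocortex and subiculum lists 0 genes were called against MRL/mpj in either group under TMM.

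The 5 excitatory genes, among them the vesicular glutamate transporter Slc17a7 and the kinase Camk2a, summed to 9519 to 9750 CPM in MRL/mpj, 5491 to 8566 CPM in MRL/lpr and 6447 to 8585 CPM in MRL/lpr+MSC libraries, with no overlap, although 0 of the 5 were called. Their median log2 fold changes were -0.44 and -0.42, and -0.09 and -0.31 under pan-neuronal scaling. MRL/lpr replicate 2, the lowest in the CA1 genes, had the highest excitatory sum of its group. Within each library, the 5 members together amounted to 6.65%, 8.15% and 7.52% of the excitatory sum in MRL/mpj, 6.72%, 2.83% and 7.98% in MRL/lpr and 5.48%, 7.92% and 7.11% in MRL/lpr+MSC libraries, and the groups overlapped. Without Wfs1, the other 4 amounted to 4.62%, 5.02% and 5.07% of the excitatory sum in MRL/mpj, 3.55%, 1.91% and 4.14% in MRL/lpr and 3.72%, 4.5% and 3.81% in MRL/lpr+MSC libraries. These 6 shares of 4 genes, chosen after their values were seen, were below the lowest MRL/mpj share. Wfs1 amounted to 2.03% to 3.13% of that sum in MRL/mpj, and to 3.17%, 0.921% and 3.84% in MRL/lpr libraries, 2 of them above the MRL/mpj range. The 8 pan-neuronal genes had a median log2 fold change of -0.21 in MRL/lpr and -0.07 in MRL/lpr+MSC mice, with 0 called.

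When the libraries were scaled by these pan-neuronal genes in place of TMM, the median of all genes was 0.37 instead of 0.02 in MRL/lpr mice and 0.12 instead of 0.01 in MRL/lpr+MSC mice. Beside those shifts, the median of the 5 CA1 genes was -0.77 and -0.37. Spink8 was then at -0.39 in MRL/lpr mice and Fibcd1 at -0.68 in MRL/lpr+MSC mice. Of all calls in MRL/lpr, 41.3% were lower under TMM, 5.87% under pan-neuronal scaling and 22.4% under total counts, and in MRL/lpr+MSC mice 43.9% under TMM and 29.9% under pan-neuronal scaling. The pan-neuronal scaling used the summed counts of its 8 genes, in which Snap25, Map2 and Syt1 weighed most. Under it the list's own median was 0.13 in MRL/lpr mice, with 2 of 8 genes negative, and 0.055 in MRL/lpr+MSC mice. The scaling thus shifted its own list above 0, and values under it share that shift.

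**Figure D3:**
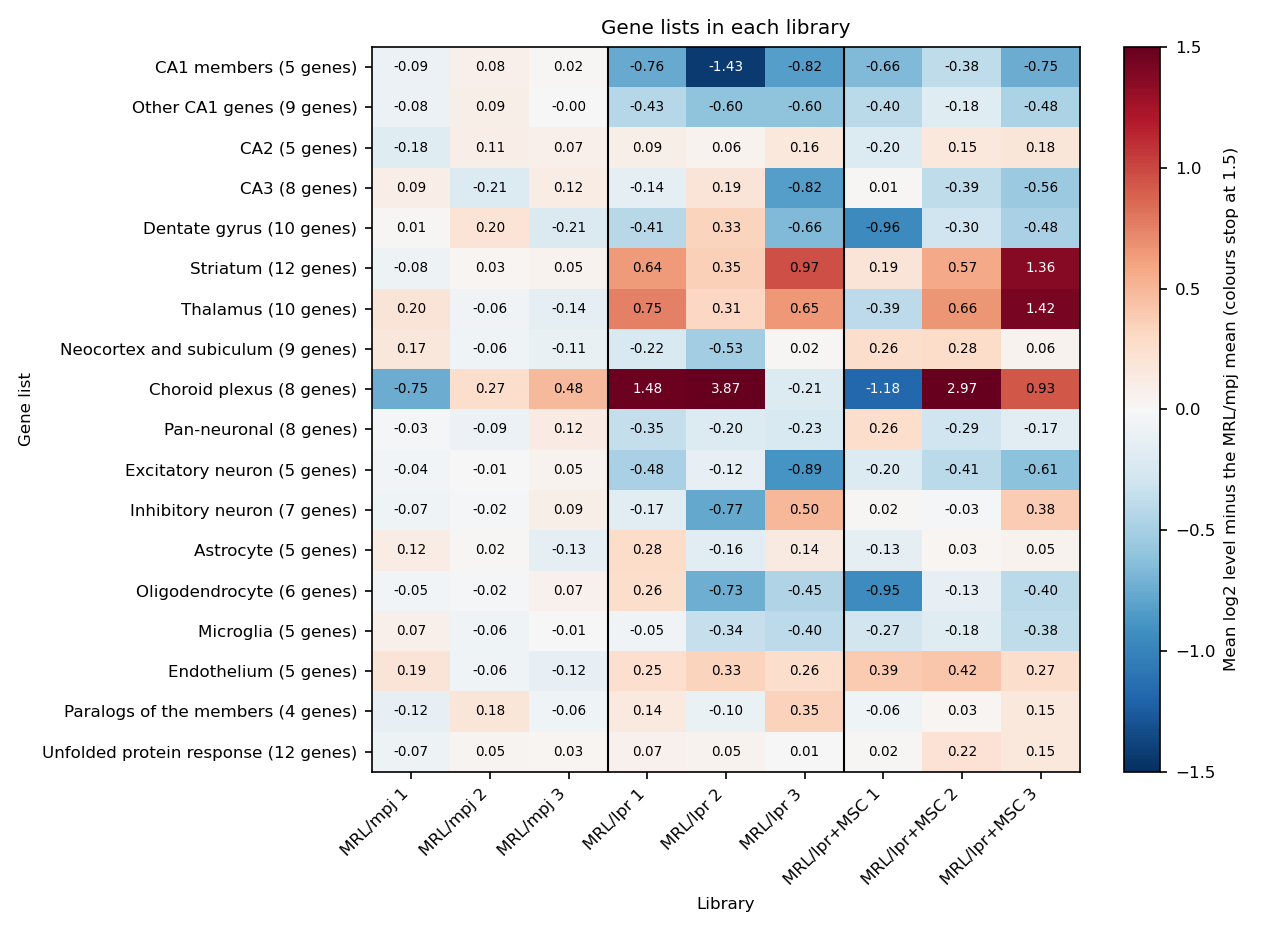
Mean log2 level of each gene list (vertical axis, with the number of genes) in each library (horizontal axis), minus the mean of the 3 MRL/mpj libraries; colours stop at 1.5 and the numbers give the values. The CA1 members are negative in all 6 MRL/lpr and MRL/lpr+MSC libraries, from -0.38 to -1.43. The choroid plexus, thalamic, striatal, dentate gyrus and CA3 lists vary strongly between libraries of one group.

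Other hippocampal fields were described by their own lists. Among the CA2, CA3 and dentate gyrus lists, of 5, 8 and 10 genes, 0 were called lower or higher in MRL/lpr mice by limma voom. The dentate gyrus genes were nominally lower in 10 of 10 cases, with a median log2 fold change of -0.27 in MRL/lpr and -0.47 in MRL/lpr+MSC mice, but under pan-neuronal scaling the median was 0.09 in MRL/lpr mice, with 3 of 10 genes negative, and -0.37 in MRL/lpr+MSC mice, with 10 of 10 negative. The median of the 5 CA1 genes in MRL/lpr+MSC mice was -0.37 as well under that scaling. The CA3 genes were nominally lower in 6 of 8 and 5 of 8 cases, with medians of -0.30 and -0.37, which were 0.04 and -0.23 under pan-neuronal scaling. Neither list was lower in every MRL/lpr library. Relative to the MRL/mpj mean, dentate gyrus levels there were -0.41, 0.33 and -0.66, and CA3 levels -0.14, 0.19 and -0.82. In MRL/lpr+MSC libraries they were -0.96, -0.30 and -0.48 for the dentate gyrus and 0.01, -0.39 and -0.56 for CA3. The CA2 list had medians of 0.15 and -0.09, and Necab2, a calcium-binding protein gene, was called higher in MRL/lpr+MSC mice (log2 fold change 0.91, adjusted p = 0.0325). Its 5 genes were split, 2 negative and 3 positive in MRL/lpr and 3 negative and 2 positive in MRL/lpr+MSC mice. Rgs14, the most abundant of them, was nominally lower, at 181.0 ± 23.9 CPM in MRL/mpj, 115.6 ± 40.0 CPM in MRL/lpr and 122.2 ± 18.3 CPM in MRL/lpr+MSC mice. No test of the difference between these fields and CA1 was made.

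Another 9 genes known from CA1 pyramidal neurons were taken as a list that does not hold the 5 members. This list too was chosen with earlier results of these data known, so its counts describe these 9 genes and are no independent support. In MRL/lpr replicate 2, where the members' mean was lowest, Calb1 (214 CPM), Bcl11b (254 CPM), Zbtb20 and Neurod6 were the highest of their group. So was Prox1 of the dentate gyrus list (260 CPM). Tyro3, Pex5l, Nr3c1, Itpka and Gpr161 were the lowest of their group there. Whether the 9 genes are particular to CA1 was not tested. In MRL/lpr mice 3 of the 9 fell, 0 rose and 7 had a negative log2 fold change, with a median of -0.50, beside 2.4% of all genes called lower and a median of 0.02. Of the 9, 4 lay below MRL/mpj with no overlap, as did 18.6% of all genes. Gpr161, an orphan receptor of the primary cilium, was at 88.7, 108 and 125 CPM in MRL/mpj and at 44.0, 23.5 and 44.7 CPM in MRL/lpr libraries (log2 fold change -1.55, SE 0.26, adjusted p = 0.0225, limma voom). The groups did not overlap.

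Pex5l, a protein of ion channel trafficking in dendrites, was at 174, 185 and 212 CPM in MRL/mpj and at 129, 71.6 and 107 CPM in MRL/lpr libraries (-0.93, SE 0.21, adjusted p = 0.0469). Itpka, a kinase of inositol trisphosphate found in dendritic spines, was at 239, 258 and 230 CPM and at 150, 135 and 141 CPM (-0.77, SE 0.07, adjusted p = 0.00371). The call of Itpka remained when single libraries were left out but not under pan-neuronal scaling (-0.42), whereas those of Gpr161 and Pex5l were lost without any 1 MRL/mpj library or MRL/lpr replicate 1, and that of Pex5l also without MRL/lpr replicate 3. The count of the 9 called was 1 without any 1 MRL/mpj library or MRL/lpr replicate 1, and 5 without MRL/lpr replicate 2. Under pan-neuronal scaling 1 of the 9, Gpr161, was called lower and 1, Nr3c1, higher, and the median was -0.16.

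Of the same 9 genes, 1, Itpka, fell in MRL/lpr+MSC mice (150, 172 and 148 CPM, log2 fold change -0.63, SE 0.09, adjusted p = 0.011), and the median of the list was -0.50, where 1.5% of all genes were called lower and the median of all was 0.01. That call was lost without any 1 MRL/mpj library. Pex5l (-0.61, adjusted p = 0.0552) and Gpr161 (-0.85, adjusted p = 0.0685) did not pass the test. In that comparison 5 of the 9 lay below MRL/mpj with no overlap, these 2 among them, as did 14.4% of all genes. Nr3c1 lay above MRL/mpj with no overlap (104.9 to 130.3 against 86.9 to 101.3 CPM), as did 2460 of the 16196 genes tested. Over both groups against MRL/mpj, where 2.29% of all genes were called lower, 3 of the 9 were, Pex5l at -0.77 (adjusted p = 0.0416), Itpka at -0.70 (adjusted p = 0.000783) and Gpr161 at -1.21 (adjusted p = 0.0348).

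The remaining 6 genes of the list passed the test in none of the 4 comparisons. Neurod6, a transcription factor of pyramidal neurons (-0.97, adjusted p = 0.0932) and Bcl11b (-0.50, adjusted p = 0.111) had negative values in MRL/lpr mice. Zbtb20, which specifies CA1 identity in development, was at -0.28 (adjusted p = 0.327) and Tyro3, a receptor kinase, at -0.22 (adjusted p = 0.645). The calcium buffer Calb1 (0.11, adjusted p = 0.762) and the glucocorticoid receptor Nr3c1 (0.25, adjusted p = 0.186) had positive values there.

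**Figure D4:**
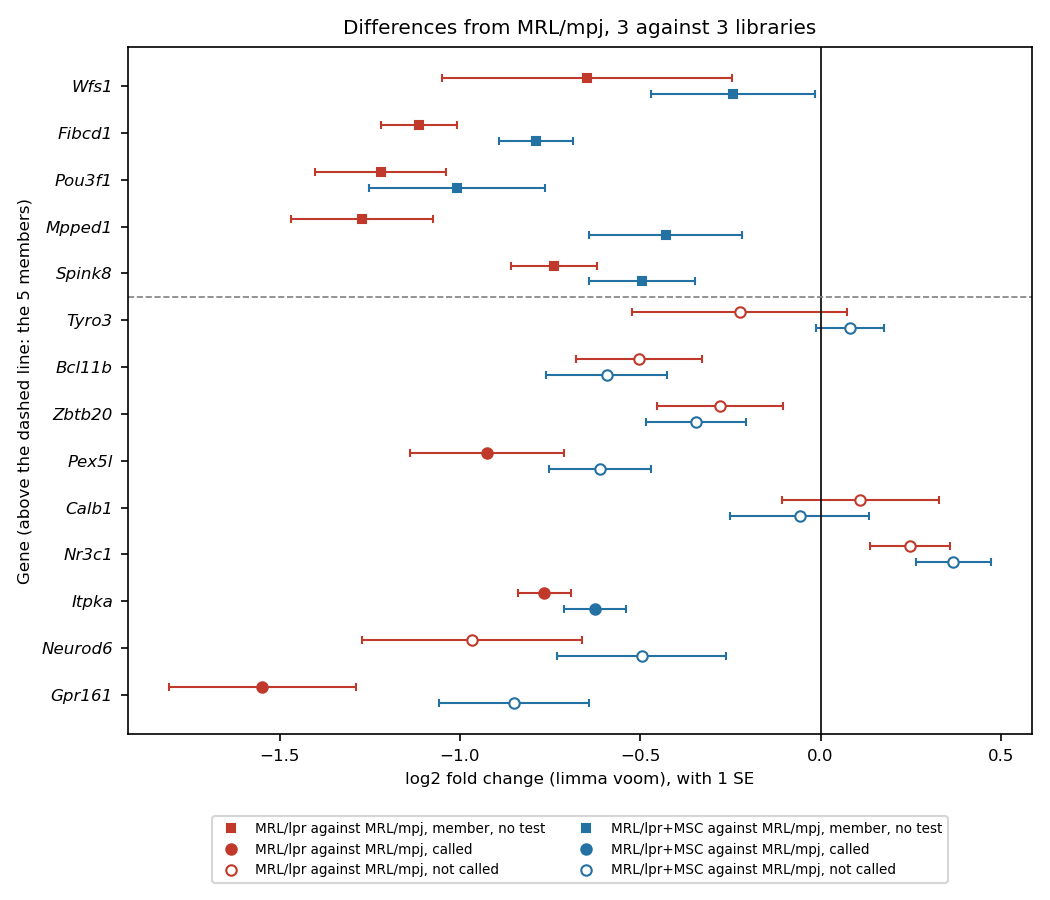
Log2 fold change of limma voom, with bars of 1 SE (horizontal axis), of the 5 CA1 members, squares above the dashed line that carry no test, and of 9 other CA1 genes in MRL/lpr and MRL/lpr+MSC against MRL/mpj mice, 3 against 3 libraries; filled circles are other CA1 genes that passed an adjusted p under 0.05 and a 1.5-fold change. Of the other 9 genes 3 are filled in MRL/lpr and 1 in MRL/lpr+MSC mice, and all 5 members are below 0 in both.

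Families and pathways of the members were looked at in the same fits. Among the paralogs Mpped2, Pou3f2, Pou3f3 and Pou3f4, 0 of 4 were called against MRL/mpj in either group, with a median log2 fold change of 0.10 in MRL/lpr and 0.05 in MRL/lpr+MSC mice. Wolframin takes part in calcium handling and the stress response of the endoplasmic reticulum, and of 12 genes of the unfolded protein response, such as the chaperone Hspa5 and the factor Xbp1, 0 were called in either comparison. Their medians were 0.06 and 0.08. Under pan-neuronal scaling, 1 paralog and 2 genes of the unfolded protein response were called higher in MRL/lpr mice, where the median of all genes was itself 0.37.

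Genes close to the members on the chromosome were compared as well. Within 500 kb of the start, 10 genes around Wfs1, 15 around Fibcd1, 18 around Pou3f1, 14 around Mpped1 and 10 around Spink8 were tested in MRL/lpr against MRL/mpj. Around Fibcd1 and Mpped1 0 of them were called. Evc2 near Wfs1 and 9930104L06Rik near Pou3f1 were called lower, and Nme6 near Spink8 was called higher, genes that are named because they were called. Of all genes tested, 2.4% were called lower and 3.41% higher. Nme6, a nucleoside diphosphate kinase gene 20.5 kb from Spink8, stood at 4.22 ± 0.534 CPM in MRL/lpr and 2.37 ± 0.365 CPM in MRL/mpj mice. Its call was at the threshold (log2 fold change 0.84, adjusted p = 0.05 after rounding, limma voom). The nearest tested protein-coding genes of Wfs1 were Jakmip1 (-0.20, adjusted p = 0.229) and Ppp2r2c (-0.29, adjusted p = 0.109), and that of Pou3f1 was Utp11 (0.19, adjusted p = 0.193). Those of Fibcd1 were Abl1 (log2 fold change 0.03, adjusted p = 0.852) and Lamc3 (-0.02, adjusted p = 0.964), and those of Mpped1 were Scube1 (-0.12, adjusted p = 0.729) and Efcab6 (-0.99, adjusted p = 0.0504). Against MRL/mpj, 9930104L06Rik was also called lower and Gm43622 near Spink8 higher in MRL/lpr+MSC mice, where 1.5% of all genes were called lower and 1.91% higher.

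Across the 9 libraries, Pearson's r between pairs of members ran from 0.42 for Wfs1 and Spink8 to 0.92 for Fibcd1 and Pou3f1. The points share the group differences and 3 groups of libraries, so these values are a description only. With the mean of the 5, which includes the gene itself, Fibcd1 had the highest r (0.96) and Wfs1 the lowest (0.77). Among the 11878 other genes that averaged 5 CPM or more, the 10 most like the members' mean were Hapln1, Gpr161, Pex5l, Pou6f1, Gm37459, Sbk1, Kcnh7, Cd34, Lin54 and Car11, with r from 0.96 to 0.98. Hapln1, which encodes a link protein of perineuronal nets, was at 40.9 ± 1.46 CPM in MRL/mpj, 25.4 ± 2.79 CPM in MRL/lpr and 29.9 ± 3.05 CPM in MRL/lpr+MSC mice (SD, n = 3). Pou6f1, another POU-domain transcription factor gene, was at 128.9 ± 2.35, 93.4 ± 6.87 and 104.3 ± 6.45 CPM. Gm37459 is annotated antisense to Pex5l and overlaps it, and since the sources used here do not say whether the counting used strand, reads of the pair cannot be told apart.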

How the data were processed

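Poly-A RNA of mouse hippocampus was sequenced in 9 libraries, 3 per group. Per the study's methods, the authors aligned reads to mm10 with STAR and counted them per gene with HTSeq. The submitters' processing notes name TopHat2 and GRCm38. The deposited matrix holds raw whole-number counts of 47643 genes, of which 47224 matched a symbol in the GENCODE annotation, and the authors also deposited FPKM values of 28008 genes per library, which the study's methods derive from the gene length and the count. Each of the 9 FPKM tables was checked over 12235 genes and followed its own column of the matrix best. Total counts were 19475804 to 26912031 per library. Columns without a sample numbered 0.

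Groups came from the labels. Nothing in the labels says that libraries are separate litters or cages, so p-values measure only the spread between these libraries. Counts were scaled by TMM (30% of log ratios and 5% of levels trimmed). CPM were computed over all 9 libraries with these factors. A gene was kept if its total was 15 counts or more and if 3 or more libraries reached the CPM that 10 counts make in the library of median size. Each comparison was fitted on its own libraries by limma voom with robust moderation (limma 3.58.1, statmod 1.5.0, R 4.3.3), and p-values were adjusted by Benjamini-Hochberg over the genes kept. A gene was called where it passed 1.5-fold with an adjusted p below 0.05. The quasi-likelihood and DESeq2 fits of the plan were not run, since the separator of the matrix kept its unit from being registered, and limma voom was the stated substitute. On simulated counts with 200 genes changed by 2 on the log2 scale, the fit recovered 193 to 195 of them and called 7 to 15 others. The simulation gave every gene the same dispersion and held no shifts in cell content between libraries. It therefore checks the code and does not measure power or false calls in these libraries.

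The 5 members and the gene lists were chosen with earlier results of these data known. Of the list of other CA1 genes 9 are used, and 2 more are not reported here, whatever their values. Calls were not used for the members. The named genes are the members, the genes of the lists, the 10 genes most correlated with the members' mean, the nearest tested neighbours, neighbours that were called, and Fas. Floors of 3 counts cover counting error only. The replicate numbers were not shown to pair mice. Alternatives were median-of-ratios size factors, no filter on low counts, the replicate number as a block, scaling by pan-neuronal genes, a joint fit of all 9 libraries, and leaving out each library. limma-trend, library quality weights, total counts without TMM and the comparison of both MRL/lpr groups with MRL/mpj were added after the data were seen.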

Additional observations from a re-analysis of the deposited data

How the results depend on the processing

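The median log2 fold change of the 5 CA1 genes kept its direction in each comparison under every alternative run. It moved by less than the spread between libraries, taken as the larger within-group SD of the mean of the 5. That spread is wide in MRL/lpr, where replicate 2 stood at -1.43 beside -0.76 and -0.82. In MRL/lpr+MSC against MRL/lpr the main value of 0.33 was itself below the spread, so the measure could hardly fail there and says little. Under pan-neuronal scaling the median went from -1.11 to -0.77 in MRL/lpr and from -0.49 to -0.37 in MRL/lpr+MSC against MRL/mpj. In MRL/lpr+MSC against MRL/lpr it went from 0.33 to 0.09, with 1 of the 5 genes negative. The number of genes called was less stable. In MRL/lpr against MRL/mpj it was 969, but 3118 with pan-neuronal scaling, 2108 with library quality weights and 165 to 1693 with single libraries left out, namely 253, 260 and 165 without MRL/mpj replicates 1, 2 and 3, 421, 1693 and 1509 without MRL/lpr replicates 1, 2 and 3. In MRL/lpr+MSC against MRL/mpj it was 553, but 344 with pan-neuronal scaling, 1168 with quality weights and 193 to 1512 with single libraries left out, the highest without MRL/lpr+MSC replicate 1, and 193 to 201 without an MRL/mpj library, 358 without MRL/lpr+MSC replicate 2 and 277 without its replicate 3. Of the 9 other CA1 genes, 1 to 5 were called in MRL/lpr with single libraries left out. In MRL/lpr+MSC the count of 1 became 2 with no filter on low counts, 0 with pan-neuronal scaling, 2 with quality weights, 0 with total counts without TMM and 0 to 2 with single libraries left out. The causes were not tested. With the replicate number as a block, 283 genes were called in MRL/lpr+MSC against MRL/mpj and 1127 in MRL/lpr against MRL/mpj. Deviations of same-numbered libraries had correlations of -0.206 to 0.369, so the numbers were not taken as pairs. In MRL/lpr+MSC against MRL/lpr 0 genes were called under every alternative run. With 3 libraries per group, leaving out 1 leaves an arm of 2, which lowers the power of the fit. The DESeq2 and quasi-likelihood fits were not run.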
